A study of Mus musculus with 12 samples.

Results

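Respiratory complex I is the first enzyme of the mitochondrial electron transport chain. All genes whose symbol is Nduf followed by a, b, c, s, v, ab or af and a number were taken, which gave 45 of the 24982 symbols in the data. Of these, 37 carry names of subunits and 8 are assembly factors, Ndufaf1 to Ndufaf8. The rule used symbols and no measured value, but complex I was chosen with earlier results of these data known. Ndufa4 keeps a complex I name although the protein is now assigned to complex IV, and it is given separately. Ndufb1 and the mitochondrially encoded subunits were not analysed here.

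Messenger RNA was sequenced from B lymphocytes of mouse spleen in 3 groups of 4 libraries, each from mice 6 weeks of age. WT mice were of the strain the submitters write as C57BL/J6. Eμ-Myc mice carry a Myc transgene under the immunoglobulin heavy-chain enhancer, which drives it in the B lineage, and are a model of B-cell lymphoma. Eμ-Myc; PRPS2 KO mice carry the same transgene and lack PRPS2, an enzyme that makes phosphoribosyl pyrophosphate for nucleotide synthesis. They are called the knockout group here, and the stated aim was to see whether loss of PRPS2 met the Myc programme. The labels do not say how B cells were purified, whether an animal had a tumour, or whether a library held one animal, and the replicates are labelled as biological.

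Complex I passes electrons from NADH to ubiquinone and pumps protons across the inner mitochondrial membrane. Its peripheral arm holds the N module, which oxidises NADH, and the Q module, which reduces ubiquinone, and its membrane arm holds a proximal and a distal part. Core subunits carry the catalysis, accessory subunits surround them, and assembly factors help to build the enzyme without remaining in it. Myc is known in other systems to raise mitochondrial genes.

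Each deposited value is a coverage per gene. The sum over genes ran from 1277305.5 to 1885768.9 per library, the read depth behind it is unknown, and precision was taken from the spread between libraries. Values below are scaled coverage, the deposited value after 1 scaling factor per library. Whether coverage was divided by gene length is not given in the sources used here, so levels were not ranked between genes. Prps2 was at 100 to 139 in WT, 197 to 298 in Eμ-Myc and 16.2 to 17.6 in the knockout libraries, and Myc at 231 to 342 in WT and 1546 to 2299 in Eμ-Myc. The 8 B-cell genes summed to between 6466 and 12781 in all 12 libraries and none was at 0 in any. In WT, 8 myeloid genes summed to between 8153 and 25239. They summed to between 5917 and 16708 in Eμ-Myc and between 1346 and 14857 in the knockout libraries. Knockout libraries 1 and 2 stood apart from 3 and 4 in Myc, which was at 1061, 1632, 3100 and 3368, and in the sum of 7 T-cell genes, at 489, 526, 13.8 and 12.5. Results that rest on these libraries are therefore given with and without them.

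The DNA before the start of a few members is shown because Myc binds the E-box CACGTG and nuclear respiratory factor 1 (NRF1) binds sites with the core TGCGCA. Ndufv1 is 1 of the 2 members with an E-box in its window, Ndufaf4, Ndufb6 and Ndufa9 are members with the NRF1 core that rose in Eμ-Myc, Ndufa6 has that core and did not pass, and Ndufc2 rose but had neither. Each is the stretch of the 250 bases before the RefSeq start that lies outside any annotated exon, from RefSeq on GRCm38.p6, read 5′ to 3′ on the gene's strand, with CACGTG or TGCGCA in capitals.
Ndufv1, chr19:4012807-4013005, minus strand: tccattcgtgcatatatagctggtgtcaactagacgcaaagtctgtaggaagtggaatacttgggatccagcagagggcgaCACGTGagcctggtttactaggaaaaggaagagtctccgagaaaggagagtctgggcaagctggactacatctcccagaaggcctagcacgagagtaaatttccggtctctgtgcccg
Ndufaf4, chr4:24897833-24898082, plus strand: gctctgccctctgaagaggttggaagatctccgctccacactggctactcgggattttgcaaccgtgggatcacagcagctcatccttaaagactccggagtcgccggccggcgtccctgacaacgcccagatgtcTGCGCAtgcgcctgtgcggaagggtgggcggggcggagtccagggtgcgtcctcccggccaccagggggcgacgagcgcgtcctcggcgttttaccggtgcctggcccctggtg
Ndufb6, chr4:40279422-40279671, minus strand: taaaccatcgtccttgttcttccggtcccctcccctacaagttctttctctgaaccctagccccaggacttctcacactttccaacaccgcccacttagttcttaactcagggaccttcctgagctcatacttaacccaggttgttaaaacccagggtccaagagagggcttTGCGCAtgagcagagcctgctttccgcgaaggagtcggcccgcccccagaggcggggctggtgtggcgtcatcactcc
Ndufa9, chr6:126849145-126849394, minus strand: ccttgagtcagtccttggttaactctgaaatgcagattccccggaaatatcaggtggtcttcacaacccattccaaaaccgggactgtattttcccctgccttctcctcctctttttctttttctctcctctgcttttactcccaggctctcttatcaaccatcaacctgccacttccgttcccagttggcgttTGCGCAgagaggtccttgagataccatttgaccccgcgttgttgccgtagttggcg
Ndufa6, chr15:82354323-82354541, minus strand: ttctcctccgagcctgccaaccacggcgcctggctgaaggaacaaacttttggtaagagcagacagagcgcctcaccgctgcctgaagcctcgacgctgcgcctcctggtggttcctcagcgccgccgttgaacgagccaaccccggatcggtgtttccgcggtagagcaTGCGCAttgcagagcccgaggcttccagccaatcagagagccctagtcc
Ndufc2, chr7:97399753-97400002, plus strand: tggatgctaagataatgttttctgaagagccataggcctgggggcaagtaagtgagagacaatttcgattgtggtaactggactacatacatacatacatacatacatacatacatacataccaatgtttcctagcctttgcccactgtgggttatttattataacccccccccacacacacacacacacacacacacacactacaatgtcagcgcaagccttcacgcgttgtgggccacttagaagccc
The E-box of Ndufv1 began 169 bases before the start, and the NRF1 core began 114 bases before it in Ndufaf4, 78 in Ndufb6, 56 in Ndufa9 and 80 in Ndufa6. Ndufaf4 and Ndufa6 each held another NRF1 core at or after the start. RefSeq windows of 250 bases before to 50 after the start were found for 40 of the 45 members. The other 5 had none. Of the 40 windows, 35 held in their last 50 bases a stretch found at the start of a transcript of the same gene. The shares below use all 40. Searched on both strands, CACGTG was in the windows of 2 of the 40 (Ndufa7 and Ndufv1, 5.0%), against 8.09% of 27025 genes with a window and 11.9% of the 9787 that were also tested in Eμ-Myc against WT. TGCGCA was in 11 of 40 (27.5%), against 8.79% and 16.0%. The ETS core CCGGAAG was in 6 (15.0%), against 9.93% and 20.5%, and the YY1 core AAGATGG in 8 (20.0%), against 7.28% and 8.6%. CACGTG and TGCGCA read the same on both strands, and none of the 4 motifs contains another. A match is a run of letters and no measured site. The 2 members with CACGTG had log2 fold changes of 0.54 and 0.97 in Eμ-Myc against WT, inside the range of the 38 without it, 0.13 to 1.61. Of the 11 with TGCGCA, 10 rose, and their log2 fold changes ran from 0.29 (Ndufa6, not called) to 1.18. Of the 29 without it, 26 rose, and the changes over all 29 ran from 0.13 (Ndufaf3, not called) to 1.61. The medians were 1.10 with TGCGCA and 0.74 without it, and the difference was not tested.

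Complex I genes were higher in Eμ-Myc than in WT B cells across every module. Of the 45, 41 passed the test and all 41 rose, 34 of 37 subunits and 7 of 8 assembly factors. Among the 12692 genes tested, 30.1% were called higher. The median log2 fold change was 0.84 for subunits (range 0.29 to 1.61) and 0.69 for assembly factors (0.13 to 1.59), against -0.01 for all genes tested. The median fold over the 45 was 1.74, and 15 rose at least 2-fold. A gene was called when the limma p, adjusted by Benjamini-Hochberg over all genes tested, was under 0.05. All 45 passed the filter on low values, and the lowest value of a member in any library was 6.53. In 38 of the 45 (32 subunits and 6 factors) every Eμ-Myc library was above every WT library, which held for 28% of all genes tested.

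**Figure D1:**
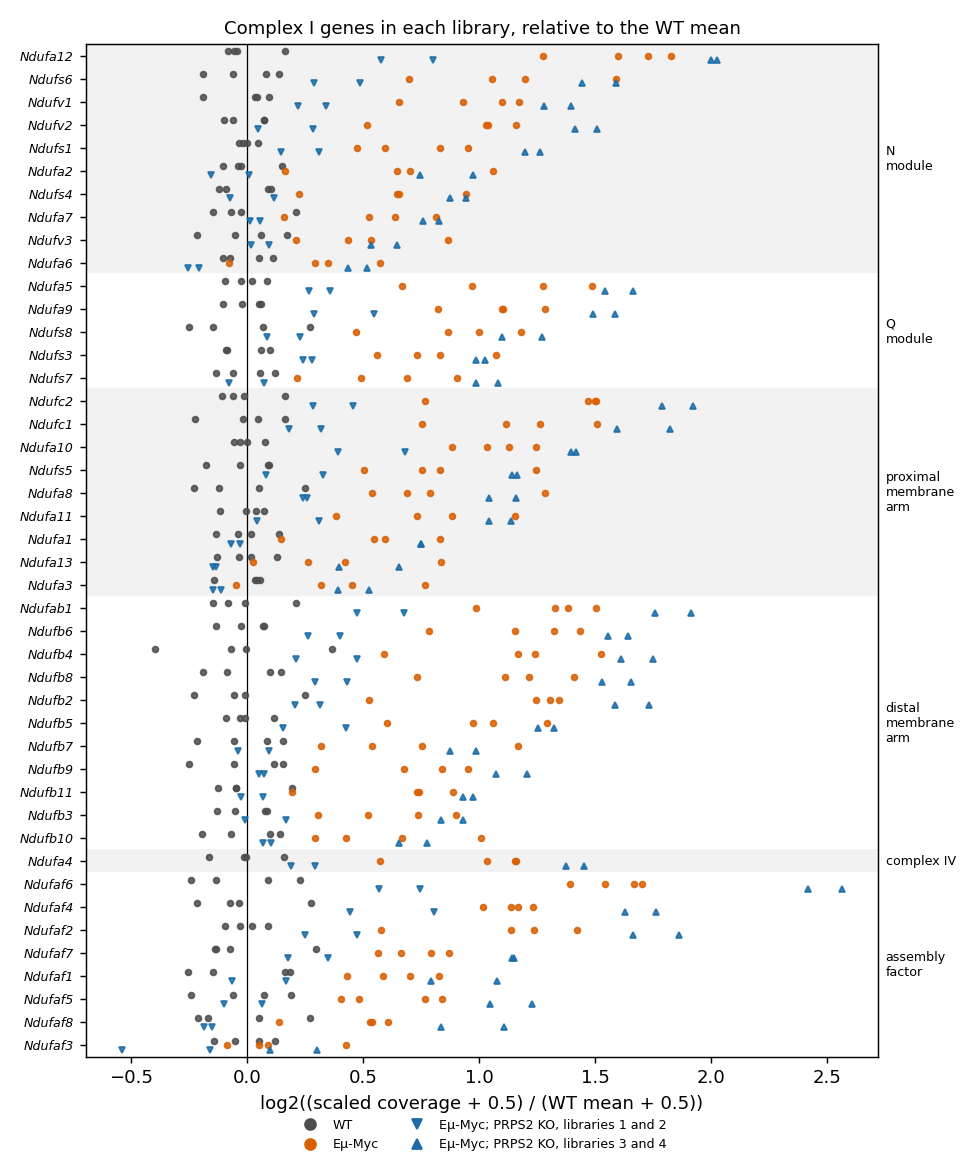
Each point is 1 library, and the x axis is log2 of scaled coverage plus 0.5 over the WT mean plus 0.5, with members grouped by structural module and sorted by their change in Eμ-Myc. Of the 44 members drawn, Eμ-Myc points lie to the right of WT for 37, and knockout libraries 1 and 2 lie to the left of 3 and 4 in all 44.

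The 7 nuclear core subunits, which bind the flavin, the iron-sulfur clusters and ubiquinone, all rose, with a median log2 fold change of 0.80. Ndufv1, which binds NADH and the flavin, was at 102, 106, 87.3 and 103 in WT libraries 1 to 4, at 157, 225, 189.9 and 214 in the Eμ-Myc libraries and at 116, 126, 262 and 242 in the knockout libraries. Ndufv2, its iron-sulfur partner, was at 219, 219, 194 and 199 in WT, at 298, 464, 427 and 424 in Eμ-Myc and at 215, 253, 591 and 553 in the knockout libraries. Ndufs1, the large iron-sulfur subunit of the N module, was at 251, 249, 263 and 255 in WT, at 384, 353, 454 and 492 in Eμ-Myc and at 281, 316, 611 and 585 in the knockout libraries. The lowest of the 4 Eμ-Myc libraries exceeded the highest WT library in each of the 3 genes. Their log2 fold changes were 0.97 (SE 0.13, adjusted p = 0.000224), 0.94 (SE 0.14, adjusted p = 0.000472) and 0.71 (SE 0.12, adjusted p = 0.000768).

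Core subunits of the Q module are described next. For Ndufs3, which lies in the peripheral arm next to the ubiquinone site, the libraries were at 85.4, 97.6, 85.7 and 94.9 in WT, at 135, 192, 152 and 162 in Eμ-Myc and at 108, 110.4, 181 and 185 in the knockout libraries. The lowest Eμ-Myc library was library 1, and it was above every WT library. For Ndufs7, which carries the last iron-sulfur cluster before ubiquinone, the libraries were at 247, 295, 259.9 and 282 in WT, at 315, 509, 381 and 438 in Eμ-Myc and at 257, 285, 575 and 537 in the knockout libraries. For Ndufs8, another iron-sulfur subunit, they were at 414, 553, 481 and 385 in WT, at 635, 1039, 837 and 916 in Eμ-Myc and at 487, 538, 1105 and 982 in the knockout libraries. WT and Eμ-Myc did not overlap in either. The Eμ-Myc against WT changes were 0.80 (SE 0.12, adjusted p = 0.000454) for Ndufs3, 0.58 (SE 0.15, adjusted p = 0.00850) for Ndufs7 and 0.89 (SE 0.17, adjusted p = 0.00176) for Ndufs8. Ndufs7 was called in 14 of the 15 alternatives run for this comparison and missed with all 12 libraries in 1 fit.

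By module, 9 of 10 N-module genes rose (median log2 fold change 0.68), 6 of 6 in the Q module (0.85), 7 of 9 in the proximal membrane arm (0.84) and 11 of 11 in the distal membrane arm (0.99). The differences between modules were not tested. Ndufa4, now counted in complex IV, was at 349, 393, 351 and 315 in WT, at 524, 787, 722 and 784 in Eμ-Myc and at 402, 432, 965 and 913 in the knockout libraries. It rose in Eμ-Myc by 0.98 (SE 0.14, adjusted p = 0.000402), with no overlap with WT.

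Among subunits, the largest changes were in accessory genes. Ndufa12 (chr10:94198720-94221443), an N-module subunit that takes the place vacated by its relative Ndufaf2, was at 86.3, 99.9, 85.5 and 84.2 in WT, at 216, 316, 271 and 296 in Eμ-Myc and at 133, 156, 357 and 363 in the knockout libraries. WT library 2 was above the other 3 WT libraries, and the lowest Eμ-Myc library was above all 4. Ndufa12 changed by 1.61 (SE 0.13, adjusted p = 1.32e-05), a fold of 3.05 with a 95% interval of 2.49 to 3.74. Ndufc2, of the proximal membrane arm, was at 128, 149, 132 and 124 in WT, at 227, 378, 369 and 377 in Eμ-Myc and at 162, 183, 505 and 461 in the knockout libraries. Ndufab1, the mitochondrial acyl carrier protein, which also serves fatty acid synthesis, was at 51.8, 60.3, 47.0 and 49.2 in WT, at 104, 148, 131 and 137 in Eμ-Myc and at 72.5, 83.6, 198 and 177 in the knockout libraries. Ndufb6, of the distal arm, was at 92.4, 92.0, 79.9 and 86.2 in WT, at 151, 238, 195 and 219.6 in Eμ-Myc and at 105, 116, 275 and 258 in the knockout libraries. No Eμ-Myc library of these 3 genes overlapped WT. The changes were 1.31 (SE 0.17, adjusted p = 0.000187) for Ndufc2, 1.31 (SE 0.13, adjusted p = 4.53e-05) for Ndufab1 and 1.18 (SE 0.14, adjusted p = 0.000119) for Ndufb6.

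The smallest changes among subunits were also in accessory genes, and 3 of them did not pass. Ndufa6, which docks acyl carrier protein at the peripheral arm, was at 267, 279, 240.3 and 245 in WT, at 245, 383, 316 and 328 in Eμ-Myc and at 223, 216, 369 and 349 in the knockout libraries. Ndufa3, of the proximal membrane arm, was at 351, 352, 309.9 and 355 in WT, at 331, 583, 427 and 469 in Eμ-Myc and at 309, 317, 493 and 449 in the knockout libraries. Ndufa13, also known as GRIM-19, was at 119.7, 129, 108 and 115 in WT, at 120.2, 211, 142 and 159 in Eμ-Myc and at 107, 108, 186 and 156 in the knockout libraries. In each of the 3, Eμ-Myc library 1 lay within the WT range while libraries 2 to 4 were above it. The changes were 0.29 (SE 0.14, adjusted p = 0.103) for Ndufa6, 0.38 (SE 0.16, adjusted p = 0.0704) for Ndufa3 and 0.39 (SE 0.16, adjusted p = 0.0645) for Ndufa13, and each passed in at least 1 alternative. Ndufv3, an N-module accessory subunit, had the smallest change among subunits that passed. It was at 109, 93.2, 83.0 and 101 in WT, at 112, 176, 131 and 140.1 in Eμ-Myc and at 103, 97.6, 151 and 140.0 in the knockout libraries, a change of 0.52 (SE 0.15, adjusted p = 0.0142) in Eμ-Myc with no overlap.

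**Figure D2:**
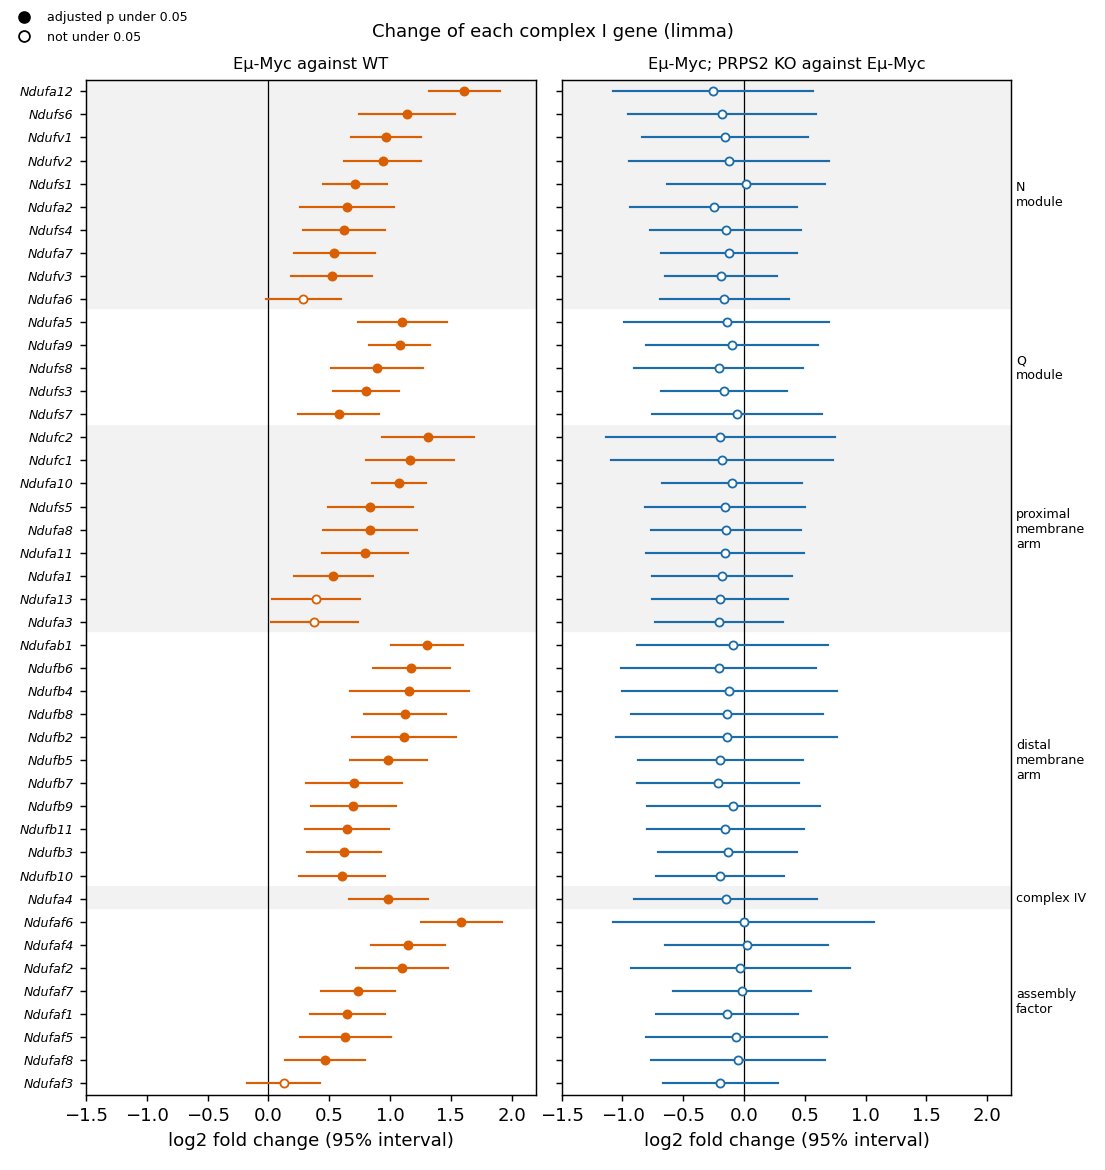
Log2 fold change (circle) and 95% interval (line) of each of the 44 members drawn, for Eμ-Myc against WT on the left and the knockout group against Eμ-Myc on the right. Filled circles passed the test: 40 of 44 on the left, 0 of 44 on the right, where all intervals hold 0.

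Among assembly factors the spread of changes was wide. Ndufaf6, which acts early in building the peripheral arm, was at 7.63, 10.8, 8.25 and 9.72 in WT, at 24.7, 30.0, 27.4 and 30.7 in Eμ-Myc and at 13.7, 15.6, 56.1 and 50.7 in the knockout libraries. Its Eμ-Myc libraries lay between 24.7 and 30.7, far above WT, and the change was 1.59 (SE 0.15, adjusted p = 2.86e-05). Ndufaf4, which binds Ndufaf3 in the assembly of the Q module, was at 11.2, 12.8, 12.5 and 16.0 in WT, at 27.1, 30.1, 29.5 and 31.5 in Eμ-Myc and at 18.0, 23.3, 45.7 and 41.7 in the knockout libraries, without overlap of WT and Eμ-Myc and with a change of 1.15 (SE 0.14, adjusted p = 0.000103). Its partner Ndufaf3 was at 28.4, 27.1, 23.6 and 25.2 in WT, at 24.6, 35.3, 27.8 and 27.1 in Eμ-Myc and at 23.3, 17.8, 32.3 and 28.0 in the knockout libraries, and WT and Eμ-Myc overlapped. Ndufaf3 was the 1 factor that did not pass, with 0.13 (SE 0.13, adjusted p = 0.448), a fold of 1.09 with a 95% interval of 0.885 to 1.34. Scaled by total coverage, its change was -0.047. The log2 ratio of Ndufaf4 to Ndufaf3 was -0.998 in WT (SD 0.29, n = 4) and 0.05 in Eμ-Myc (SD 0.20, n = 4), without overlap, and it was 0.27 in the knockout group (SD 0.44, n = 4), overlapping Eμ-Myc. This pair was chosen after the values were seen, and its ratio is a description. The Ndufaf3 gene (chr9:108565537-108567434, minus strand) shares 48 exon bases with Impdh2 on the other strand.

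Ndufaf2, the paralog that holds the place of Ndufa12 during assembly, was at 33.2, 34.4, 31.7 and 36.1 in WT, at 50.8, 91.5, 75.1 and 80.3 in Eμ-Myc and at 40.3, 47.3, 124 and 108 in the knockout libraries. It rose by 1.10 (SE 0.17, adjusted p = 0.000524), beside 1.61 for Ndufa12, and the log2 ratio of Ndufaf2 to Ndufa12 was -1.39 in WT and -1.90 in Eμ-Myc (SD 0.13 in both, n = 4). In the knockout group it was -1.68 (SD 0.10, n = 4). Values from -2.09 to -1.79 in Eμ-Myc did not overlap those from -1.54 to -1.22 in WT or from -1.75 to -1.52 in the knockout libraries, and the knockout and WT ranges overlapped. This pair too was chosen after the values were seen. Of its 2978 exon bases, 1955 are shared with the antisense transcript B230220B15Rik. Whether counting used strand is not given in the sources used here, so these reads may be mixed.

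Ndufaf1 works with Ecsit and Acad9 in building the membrane arm. It was at 42.1, 57.4, 45.5 and 56.5 in WT, at 68.0, 82.3, 75.8 and 89.8 in Eμ-Myc and at 48.1, 56.7, 107 and 87.8 in the knockout libraries. Ndufaf7, a methyltransferase, was at 23.4, 18.0, 17.3 and 17.2 in WT, at 28.4, 35.2, 30.4 and 33.3 in Eμ-Myc and at 21.6, 24.3, 42.5 and 42.8 in the knockout libraries. Both rose without overlap of WT and Eμ-Myc, by 0.65 (SE 0.14, adjusted p = 0.00307) for Ndufaf1 and 0.74 (SE 0.14, adjusted p = 0.00154) for Ndufaf7. Ndufaf5 hydroxylates Ndufs7, and was at 7.46, 8.23, 6.53 and 8.95 in WT, at 10.5, 13.6, 11.1 and 14.4 in Eμ-Myc and at 7.26, 8.17, 18.9 and 16.6 in the knockout libraries. Ndufaf8, which stabilises Ndufaf5, was at 45.9, 64.4, 55.1 and 47.3 in WT, at 58.7, 81.2, 77.5 and 77.1 in Eμ-Myc and at 47.9, 46.7, 115 and 95.3 in the knockout libraries. Ndufaf5 rose by 0.63 (SE 0.17, adjusted p = 0.00968) without overlap, and Ndufaf8 by 0.47 (SE 0.15, adjusted p = 0.0216) with Eμ-Myc library 1 inside the WT range. Ndufaf5 was called in 14 of 15 alternatives and missed with all 12 libraries in 1 fit. Ndufaf8 was called in 8 of 15. Its adjusted p was between 0.0516 and 0.0600 without Eμ-Myc library 2, 3 or 4 or WT library 1 or 4, 0.0982 with scaling by total coverage and 0.181 with all 12 libraries in 1 fit. The log2 ratio of Ndufaf5 to Ndufaf8 was -2.77 for WT, -2.57 for Eμ-Myc and -2.59 for knockout libraries, and that of Ndufaf5 to Ndufs7 was -5.13, -5.04 and -5.05. With 4 libraries a group, an exact permutation test of a partner ratio cannot go below 0.0286 before adjustment. Over the 8 such tests the smallest adjusted p was 0.0763, and none passed. The pairs Ndufaf4 with Ndufaf3 and Ndufaf2 with Ndufa12 were chosen after the values were seen, so their p is no fair test.

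**Figure D3:**
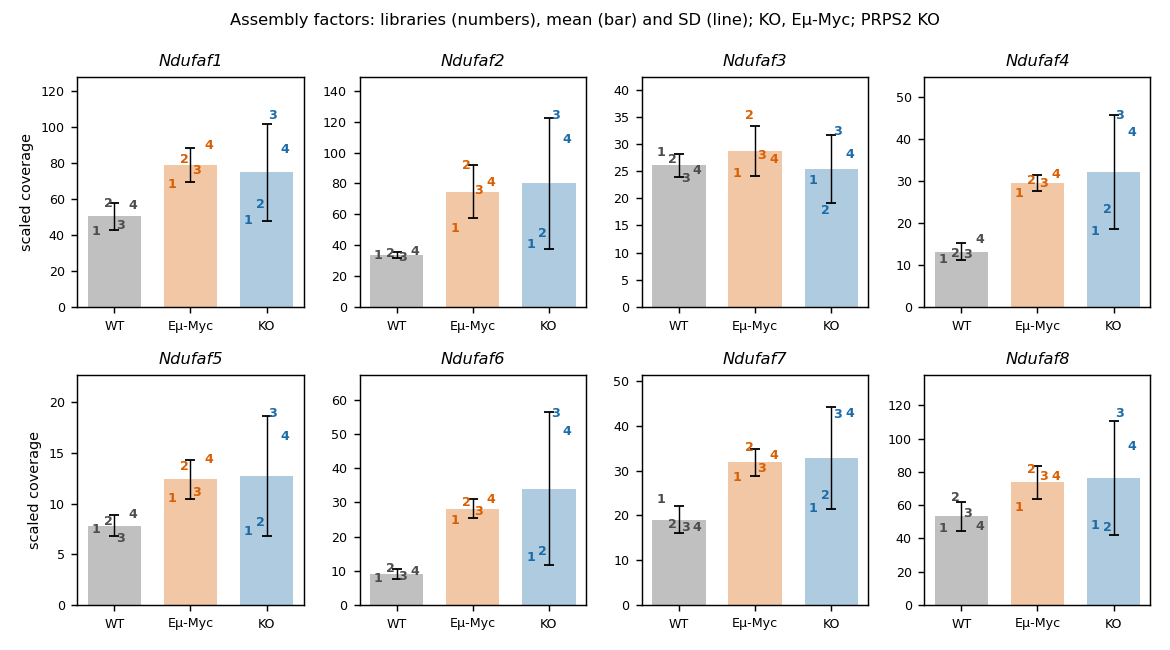
Scaled coverage of each of the 8 assembly factors on axes that start at 0, with each library drawn as its number, the group mean as a bar and the SD as a line (n = 4). Ndufaf6 and Ndufaf4 are well separated between WT and Eμ-Myc, Ndufaf3 overlaps among the 3 groups, and knockout libraries 1 and 2 lie below 3 and 4 in every panel.

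The other 21 members, all accessory subunits, all passed and rose, from 0.53 in Ndufa1 to 1.17 in Ndufc1, and in 19 of them WT and Eμ-Myc did not overlap. Of the 41 called members, 32 were called in all 15 alternatives, and 44 of 45 members kept a positive change in all of them, Ndufaf3 being the exception. Scaling by total coverage moved the median of all genes from -0.01 to -0.19, and under it the medians were 0.66 for subunits and 0.52 for assembly factors. Eμ-Myc library 1 was the lowest of its group in 44 of 45 members and library 2 the highest in 38. The shares of all genes with this order were not computed, so it cannot be read as particular to complex I.

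Genes of the same pathway outside the symbol rule moved the same way in part. Of 10 other complex I assembly genes measured, 7 rose in Eμ-Myc against WT and none fell, with log2 fold changes of 1.16 for Ecsit, 0.93 for Tmem70, 0.75 for Dmac1, 0.70 for Nubpl, 0.59 for Acad9, 0.36 for Timmdc1 and 0.29 for Foxred1. The nuclear subunits of complexes II to V rose in 37 of 38 cases, with a median of 0.92. Whether complex I genes differed from these was not tested. Of 11 regulators of mitochondrial biogenesis, 5 rose, namely Tfb1m at 0.96, Ppargc1b at 0.63, Pprc1 at 0.61, Tfb2m at 0.43 and Nrf1 at 0.37. Ppargc1a, at -0.80, and Esrra, at -0.57, fell, while 3182 of the 12692 genes tested in Eμ-Myc against WT were called lower. These lists were written with earlier results of the data known.

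Markers of other cells moved between the same groups. All 7 T-cell genes and all 8 NK-cell genes measured fell in Eμ-Myc against WT, where 3182 of the 12692 genes tested were called lower. The T-cell and NK-cell sums ran from 416 to 2343 and from 367 to 1531 in WT. In Eμ-Myc they ran from 89.2 to 122 and from 102 to 250. Of 6 platelet genes 2 fell, and no gene of 8 myeloid or 7 erythroid genes passed. Of 8 B-cell genes 1 fell, and of 5 plasma-cell genes 1 rose and 2 fell. No gene of these 7 lists passed in the knockout group against Eμ-Myc. No marker in these lists was at 0 in any library. The part of other cells in the rise of complex I genes was not tested. In these libraries a change in RNA per cell and a change in the share of cells of a type cannot be told apart.

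Loss of PRPS2 on the Eμ-Myc background gave no call among complex I genes. Of 45 members, 0 passed in limma against Eμ-Myc. An unadjusted limma p under 0.05 was found for 0 members, against 124 of the 12531 genes tested. Over the 12531 genes tested, 0.00798% were called, which is 1 gene, Prps2 itself. Subunits had a median log2 fold change of -0.16 and assembly factors -0.04, against -0.04 for all genes tested. In direction, 43 of 45 were lower and 2, Ndufs1 and Ndufaf4, were higher, while 7485 of the 12531 genes tested were lower. No member had groups that did not overlap, against 1.47% of genes tested. The intervals are wide: over the 45 members, the 95% intervals of the fold reached down to 0.454 (Ndufc2) and up to 2.10 (Ndufaf6), and all 45 held 1. A change of either size in a single gene could thus go unseen, and the lack of a call does not show equal levels.

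The 3 members with the smallest p were Ndufaf3, Ndufv3 and Ndufa3, whose values are given above. Their knockout libraries 1 and 2 were below the lowest Eμ-Myc library, and libraries 3 and 4 lay within the Eμ-Myc range. Their changes against Eμ-Myc were -0.19 (SE 0.20, adjusted p = 1.00) for Ndufaf3, -0.19 (SE 0.20, adjusted p = 1.00) for Ndufv3 and -0.21 (SE 0.23, adjusted p = 1.00) for Ndufa3, and none passed.

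The spread within the knockout group was the largest of the 3 groups. The SD over 4 libraries on the log2 scale was larger in the knockout group than in Eμ-Myc for 45 of 45 members. The share of all genes for which this held is not given here. The median SD over subunits was 0.12 for WT, 0.29 for Eμ-Myc and 0.58 for the knockout group. Over assembly factors it was 0.21, 0.19 and 0.65. Relative to the WT mean, the median of subunits was 0.10, 0.29, 1.21 and 1.10 on the log2 scale in knockout libraries 1 to 4, and that of assembly factors 0.06, 0.26, 1.19 and 1.10. In Eμ-Myc libraries 1 to 4 the subunit medians were 0.52, 1.16, 0.83 and 0.88. All 45 members lay below the lowest Eμ-Myc library in knockout library 1, where 40.2% of the genes tested did, and all 45 also did so in library 2, against 36.5% of genes. In knockout library 3, 31 members lay above the highest Eμ-Myc library, against 39.9% of genes, and 25 did in library 4, against 39.2%. Knockout libraries 1 and 2 were both below 3 and 4 in 45 of 45 members, which held for 50.7% of the 12531 genes tested.

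**Figure D4:**
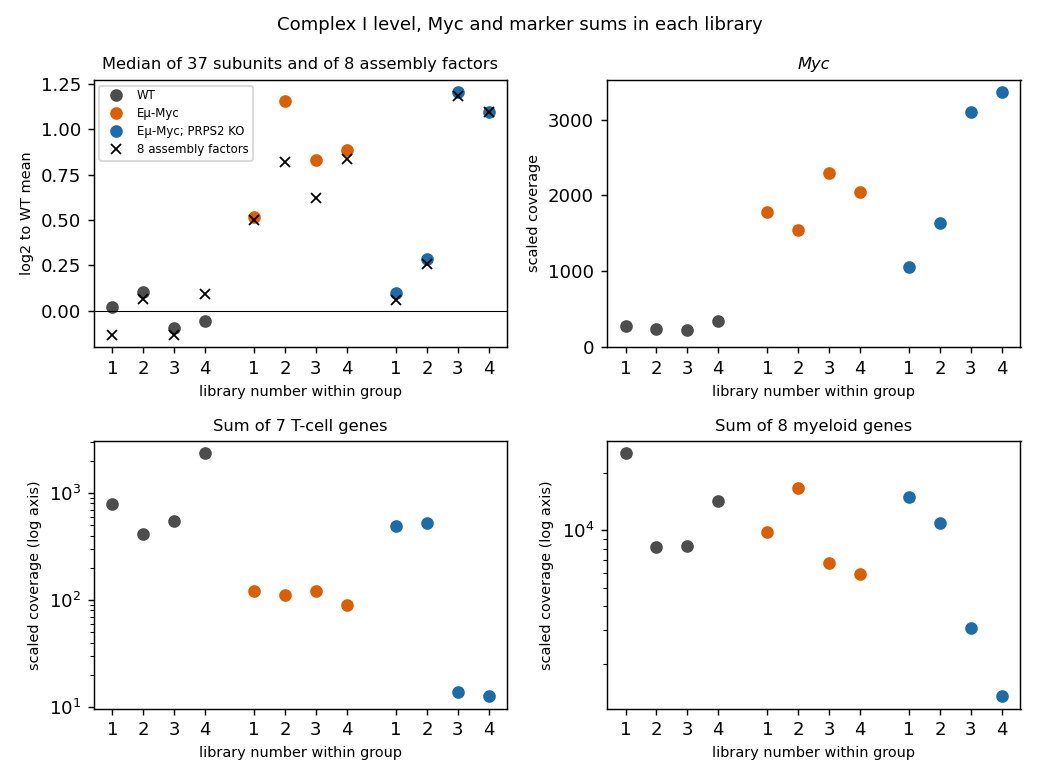
Values in each of the 12 libraries, by number within group: the median log2 ratio to the WT mean of subunits (circles) and assembly factors (crosses), Myc, and the sums of 7 T-cell and 8 myeloid genes on log axes. Knockout libraries 1 and 2 are below libraries 3 and 4 for complex I genes and Myc and above them for both marker sums.

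Some other values moved with this split and some did not. Myc was at 1061 and 1632 in knockout libraries 1 and 2 and at 3100 and 3368 in 3 and 4, while Prps2 was between 16.2 and 17.6 in all 4. The NK-cell sum was 590, 444, 27.4 and 24.1 in libraries 1 to 4, and the myeloid sum 14857, 10895, 3093 and 1346, against 5917 to 16708 in Eμ-Myc. The plasma-cell sum was 369, 438, 109 and 109, against 347 to 458 in Eμ-Myc. The B-cell sum was between 7102 and 7695 in the 4 libraries. The platelet sum, at 142, 40.6, 39.7 and 43.0, had library 2 beside 3 and 4. The erythroid sum, at 90.9, 78.3, 117 and 124, was higher in 3 and 4. The number of genes with a value above 0 was 15934, 15703, 15010 and 14900. The part of these differences in the levels of complex I genes was not tested.

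The direction against Eμ-Myc depended on which knockout libraries were used. With libraries 3 and 4 only, 7 of 45 members rose and none fell: Ndufaf6 at 0.91, Ndufaf4 at 0.56, Ndufs1 at 0.52, Ndufaf8 at 0.52, Ndufaf7, Ndufa9 and Ndufab1, which is near the 13.3% of all genes tested that were called higher. With libraries 1 and 2 only, 13 fell and none rose, with 7.35% of all genes called lower, and the largest falls were Ndufc2 at -0.94, Ndufaf6 at -0.92 and Ndufa12 at -0.92. Left out singly, knockout library 1 took the number of members with a positive change from 2 to 33 and library 2 to 21, and without library 3 or without library 4 it was 0. The Eμ-Myc libraries moved it too, to 0 without library 1, 7 without library 2 and 6 without library 4. The median of subunits was 0.04 without knockout library 1 and -0.32 without knockout library 3. No member passed in any of these fits that left out a single library. These subsets were chosen with earlier results of the data known, and the labels give no reason for the split. In libraries 1 and 2 all 45 members lay below every Eμ-Myc library, so the sign with these libraries only was fixed in advance. The calls from either subset describe the split and are no test of PRPS2 loss.

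Set against WT, few complex I genes passed in the knockout group. Of 45 members 7 rose, which is near the 15.7% of the 12654 genes tested that were called higher. The 7 were Ndufaf6 at 1.58, Ndufa12 at 1.35, Ndufab1 at 1.21, Ndufaf4 at 1.17, Ndufa9 at 0.98, Ndufa10 at 0.97 and Ndufs6 at 0.96 (log2 fold change). The medians were 0.69 for subunits and 0.64 for assembly factors. In direction 44 were higher and Ndufaf3 was lower, at -0.07 (adjusted p = 0.778), while 6116 of the 12654 genes tested were higher. With knockout libraries 1 and 2 only, 7 of the 44 were lower than WT (Ndufa1, Ndufa2, Ndufa3, Ndufa6, Ndufa13, Ndufaf5 and Ndufaf8), and 37 of 45 members kept 1 sign in all 17 alternatives. Of markers of other cells, 5 of 6 platelet genes fell in this comparison, where 1542 of the 12654 genes tested were called lower. The median over the 6 was -1.99, and their sums were 91.4 to 409 in WT and 39.7 to 142 in the knockout libraries. Of 8 B-cell genes 1 fell, and no T-cell, NK-cell, myeloid, erythroid or plasma-cell gene passed, though the medians of the T-cell and NK-cell genes were -3.22 and -2.49. The part of these cells in the values of complex I genes was not tested. In 18 of 45 members every knockout library was above every WT library, against 19.2% of genes tested. For Ndufa10, which sits on the proximal membrane arm, WT libraries were at 117, 119.9, 115 and 126 and knockout libraries at 157, 192, 321 and 316, a change of 0.97 (SE 0.24, adjusted p = 0.0305).

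This count rested on the same libraries. With knockout libraries 3 and 4 only, 44 of 45 rose, with 36.8% of genes tested called higher, and the exception was Ndufaf3, at 0.20. With libraries 1 and 2 only, 3 rose, Ndufa10, Ndufa12 and Ndufab1, with 7.31% of genes tested called higher. Without knockout library 1 there were 34 calls, with 27.5% of all genes tested called higher, and without library 2 there were 21, with 17.4%. Without library 3 or 4 there were 0, with 3.42% and 2.78% of genes called higher. Leaving out any 1 of the 4 WT libraries also gave 0, with between 0.112% and 5.19% of genes called higher. Each pair of the 3 comparisons shares a group of libraries, so their values are given side by side and were not correlated. Other complex I assembly genes had 1 call of 10 against WT, Ecsit, complexes II to V had 11 of 38 and the regulators 2 higher and 1 lower of 11. Against Eμ-Myc these 3 lists had 0 calls.

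Some members share sequence or exons with other genes. Ndufb4 has near copies, Ndufb4b and Ndufb4c, and Ndufa12 and Ndufab1 have pseudogene copies in RefSeq, so that reads could be split among them and these values are uncertain. Besides Ndufaf2, the largest shares of exon bases that overlap the other strand were in Ndufb6, with 257 of 659 shared with Smim27, and Ndufa13, with 375 of 1251 shared with Tssk6. Ndufb9, Ndufb8 and Ndufb2 share 201, 134 and 145 exon bases with predicted genes on the same strand. Positions are from GENCODE M21 on GRCm38.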

How the data were processed

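Per the labels, directional libraries were prepared from polyadenylated RNA of splenic B lymphocytes. The authors deposited 1 file per library with a coverage signal for each of 24982 gene symbols. Most non-zero values (91.6%) had a fraction, so count tests were not used. Per the submitters' processing notes, mm10, DESeq and R 4.3.3 were used. The aligner, the annotation and the use of strand are not given in the sources used here.

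Each library was scaled by a trimmed mean of log ratios, without weights (each tail trimmed by 30% for ratios and 5% for mean values). Genes that reached a scaled coverage of 1 in 4 or more of the 8 libraries of a comparison were fitted with limma 3.58.1 in R 4.3.3 on log2(scaled coverage + 0.5), with a trended, robust empirical Bayes prior, two-sided. Log2 fold changes are on that scale, which understates the change of low genes. Calls needed a p under 0.05 after Benjamini-Hochberg adjustment across every gene fitted. The 95% intervals are unadjusted. The steps were tested on simulated data. Python 3.11.15, pandas 2.3.3 and matplotlib 3.10.9 made tables and figures.

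The members, gene lists and alternatives were chosen with earlier results of these data known. Values are printed for the nuclear core subunits (1 is counted but not reported singly or drawn here), the assembly factors, Ndufa4, the 4 other members with the largest and the 4 with the smallest change in Eμ-Myc against WT, any member against the common direction, and the 3 with the smallest p against Eμ-Myc. Naming Ndufa10 and its values went beyond this rule and was chosen after its values were seen. The marker lists were B cell, T cell, NK cell, myeloid, erythroid, platelet and plasma cell. In the knockout group and Eμ-Myc, deviations of same-numbered libraries had correlations of 0.662, 0.194, 0.255 and 0.609 for numbers 1 to 4. Only numbers 1 and 4 correlated best with their own number, so a pairing was seen in part, and the labels state none. With the number as a block, 0 members were called there too.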

Additional observations from a re-analysis of the deposited data

Results flagged for a closer look

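In 4 of 72 groups of 4 libraries examined for the named members, 1 library lay far from the other 3 by Dixon's test at 95%, and chance gives about 1 in 20. Ndufa12 was at 99.9 in WT library 2, against 84.2 to 86.3 in the other WT libraries. Ndufaf7 was at 23.4 in WT library 1, against 17.2 to 18.0. Ndufa3 was at 309.9 in WT library 3, below the 351 to 355 of the others. Ndufc2 was at 227 in Eμ-Myc library 1, below the 369 to 378 of the other Eμ-Myc libraries. All 4 genes kept their direction in Eμ-Myc against WT in each of the 15 alternatives, which include leaving out each of these libraries.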

How the results depend on the processing

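In Eμ-Myc against WT the number of members called, 41, stayed between 32 (all 12 libraries in 1 fit, with 24.1% of all genes called higher) and 44 (without Eμ-Myc library 1, 29.2%) over the 15 alternatives. The 1 reversal was Ndufaf3, at -0.047 with scaling by total coverage. In the knockout group against Eμ-Myc, 0 calls became 7 with knockout libraries 3 and 4 only and 13 with libraries 1 and 2 only, and stayed 0 in all other alternatives. With libraries 3 and 4 only, Ndufaf3 turned to 0.079, Ndufv3 to 0.078 and Ndufa3 to 0.085. In the knockout group against WT, the 7 calls became 11 with scaling by median of ratios (18.2% of all genes called higher), 18 with total coverage (18.2%), 4 with no filter on low coverage (8.98%), 25 with all 12 libraries in 1 fit (23.9%), 44 with knockout libraries 3 and 4 only, 3 with libraries 1 and 2 only, and between 0 and 34 with 1 library left out. Ndufaf3 there turned to 0.085 without knockout library 2 and 0.20 with libraries 3 and 4 only, and was -0.19 without library 3. With libraries 1 and 2 only, Ndufa6 turned to -0.23, Ndufaf8 to -0.15, Ndufa13 to -0.14, Ndufa3 to -0.13, Ndufa2 to -0.068, Ndufa1 to -0.046 and Ndufaf5 to -0.0070, and Ndufa6 was also -0.0066 with total coverage and -0.0046 without library 3. The cause was not tested. Fits on libraries 3 and 4, or 1 and 2, have fewer samples.

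With the replicate block, 42 members were called in Eμ-Myc against WT (30.3% of all genes called higher), 0 when the knockout group was set against Eμ-Myc and 1 when it was set against WT (7.51% of all genes called higher). Correlations of same-numbered libraries were 0.232, -0.10, 0.265 and 0.134 for Eμ-Myc with WT. They were 0.398, -0.43, 0.136 and -0.06 for the knockout group with WT. Not every library correlated best with its own number: 1 of 4 did in each of these comparisons, and 2 of 4 (numbers 1 and 4) for the knockout group with Eμ-Myc. Read depth is unknown, so no limit of detection can be given.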
